A study of Mus musculus with 58 samples.

Results

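Chemokines and their receptors were examined in lung, liver and forestomach of mice exposed to benz(a)anthracene (BaA). The members were all genes on the array whose symbol begins with Ccl, Cxcl, Ccr or Cxcr followed by a digit, 51 of the 20018 genes that the probes name, measured by 60 of 55681 probes. A member probe was tested in a tissue when its tissue RNA signal was well above background on 4 or more arrays of that tissue. This left 42 genes (48 probes) in lung, 23 genes (30 probes) in liver and 37 genes (43 probes) in forestomach, with 22 genes tested in all 3 tissues and 9 in none. The 9 were the ligands Ccl1, Ccl20, Ccl22, Ccl26, Ccl28 and Cxcl2 and the receptors Ccr1, Ccr1l1 and Ccr4, so an absence of calls says nothing about them.

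The animals were male Muta™Mouse, 10 weeks old, a transgenic line that carries a bacterial lacZ reporter in all groups, controls included. Oral gavage for 28 days delivered olive oil alone to D0 mice, and olive oil with BaA to the others. The daily amount per kg body weight was 20 mg in D1, 40 mg in D2 and 80 mg in D3, and tissues were taken 72 hours after the final dose. Lung had 5 mice in each group. Liver had 5 mice in D0, D1 and D2 and 4 in D3, and forestomach had 4 in D0 and 5 in each BaA group. Each of the 58 arrays compared the RNA of one tissue of one mouse (Cy5) with a reference RNA from 11 mouse cell lines (Cy3), and every value below without a further word is log2 of that ratio. The ratio has no meaning between genes, because each gene has its own level in the reference. Whole pieces of tissue were used, so a change in the number of cells that carry a transcript and a change of the transcript per cell cannot be told apart.

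Chemokines are small secreted proteins that bind G protein-coupled receptors on leukocytes and set the direction in which these cells migrate. One branch is homeostatic. Cxcl13 and its receptor Cxcr5 place B cells in follicles, Ccl19 and Ccl21 draw Ccr7-bearing lymphocytes and dendritic cells to lymphoid tissue, and Cxcl12 with Cxcr4 retains leukocytes and progenitors. The other branch is inflammatory. Ccl2 and Ccl7 draw monocytes through Ccr2, Cxcl1 and Cxcl5 draw neutrophils through Cxcr2, and interferon-induced Cxcl9 and Cxcl10 draw activated T cells through Cxcr3. In the lung both branches serve a surface that meets inhaled material continuously.

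All 6 lung marker genes were well above background on all 20 lung arrays, all 6 liver marker genes on all 19 liver arrays, and 7 of 8 squamous epithelium genes on all 19 forestomach arrays. Several arrays stood apart from their group in genes of other cells. Lung mouse 17 (D3) had a T cell list score of 1.43, lung mouse 14 (D2) an adipocyte score of 3.73, lung mouse 8 (D1) a neutrophil score of 2.19 and lung mouse 7 (D1) a macrophage score of 1.23, where a score is the mean log2 deviation of a list from its average over the arrays of the tissue. In forestomach the glandular stomach score ranged from -2.94 to 2.64. The squamous epithelium score was 3.96 in lung mouse 5 (D0) and 2.02 in lung mouse 16 (D3), against group medians of -0.26 and -0.36. The part of other cells in the values of these arrays was not tested, and calls lost without one of them are given beside the gene.

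Across the 3 tissues, the members that passed the test at a dose were in lung and were all higher than in vehicle mice. A probe was called when its FDR-adjusted P in limma, taken over all tested probes of the tissue, was at most 0.05 and its change at least 1.5-fold. In lung, 3 of 48 member probes were called higher at D2, where 0.484% of all 30381 tested probes were (0.556% in either direction), and 3 of 48 at D3, where 1.32% were (1.88% in either direction). The 3 at D2 were receptors, Cxcr5, Ccr7 and Ccr6. The 3 at D3 were Cxcr5, Ccr7 and the ligand Ccl11. At D1, 0 of 48 were called by limma (0% of all probes), and 12 of the 48 had an unadjusted p under 0.05, against 7.46% of all probes (6 without mice 7, 8 and 9). The same counts were 6 of 48 at D2, against 16% of all probes, and 9 of 48 at D3, against 23.9%. A rise or fall over the 4 doses (slope with adjusted P at most 0.05, no minimum fold) was called for 6 member probes of 5 genes, all rising. These were Cxcr5, Ccr7, Cxcr4, Ccl11 and, on 2 probes, Ccl27a. The 6 are 12.5% of the member probes, against 7.28% of all probes called rising and 11.6% in either direction. The member share is near the 11.6%, so the count is not read as a result about the members. On the authors' own log2 ratios the same genes were called at D3 and in the trend, and Ccr7 at D2 fell short (0.70, adjusted P 0.0629). With each array centred on its median in place of loess, 0 were called at any dose or in the trend, with the called genes still above vehicle. The share of all probes called with that centring is not given here, so the 0 cannot be read as a result about the members. Such centring also moved the median of all probes at D2, so the height of these genes there depends in part on the scaling.

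Cxcr5 (NM_007551), the receptor that leads B cells and follicular helper T cells towards Cxcl13, had the largest changes of the called members. Its ratios were 2.56, 1.61, 2.06, 1.28 and 1.92 in D0 mice 1 to 5 and 2.71, 2.23, 2.18, 2.54 and 2.67 in D1 mice 6 to 10. They were 2.76, 2.76, 2.86, 3.08 and 2.65 in D2 mice 11 to 15 and 2.67, 3.11, 2.87, 2.64 and 2.69 in D3 mice 16 to 20. Every D2 and D3 mouse lay above every vehicle mouse. The log2 change was 0.58 at D1 (SE 0.175, limma adjusted P 0.391), 0.94 at D2 (SE 0.175, adjusted P 0.00758) and 0.91 at D3 (SE 0.175, adjusted P 0.0031). The change at D3 was 0.81, 0.58 and 1.18 within the 3 slides, each of which held all dose groups. Fewer gene spots were well above background on the third slide, from 44.4% (D0 mouse 4) to 49.6% (D1 mouse 10). The other lung slides had 53.0% (D3 mouse 16) to 55.2% (D3 mouse 17). The part of this in the values of any gene was not tested. On a slide, here and for the genes below, 1 or 2 D3 mice were set against 1 or 2 D0 mice. Cxcr5 was called at D2 and D3 without any one mouse. With the scanner software's processed signals it was 0.29 at D2 (adjusted P 0.804) and 0.92 at D3 (adjusted P 0.194). Cxcr5 was not well above background on 4 arrays of liver or forestomach and was not tested there.

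Ccr7 (NM_007719) guides lymphocytes and mature dendritic cells towards Ccl19 and Ccl21. The ratios were 3.07, 2.41, 3.32, 2.99 and 3.27 in D0 and 3.56, 2.77, 3.35, 3.50 and 3.50 in D1, with mouse 2 lowest of the vehicle mice. They were 3.85, 3.68, 3.39, 3.68 and 3.99 in D2 and 3.23, 4.07, 3.72, 3.56 and 3.86 in D3. All 5 D2 mice lay above the vehicle mice, while 1 D3 mouse, mouse 16, lay within their range. The change was 0.71 at D2 (SE 0.183, limma adjusted P 0.0473) and 0.68 at D3 (SE 0.183, adjusted P 0.0241). Without mouse 2 these were 0.56 (adjusted P 0.113) and 0.53 (adjusted P 0.0678), and without D3 mouse 17 the D3 change was 0.58 (adjusted P 0.077) and the slope 0.60 (adjusted P 0.0706). At D2 the call held without mouse 7, 16 or 17 and was lost without any other single mouse (adjusted P 0.0501 to 0.113). Within slides the D3 change was 0.91, 0.24 and 0.66. In forestomach Ccr7 changed by 0.15 at D3 (SE 0.177, adjusted P 1), and the D3 changes of lung and forestomach differed by 0.53 (SE 0.233, adjusted P 0.489), which does not pass.

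Ccr6 (NM_009835), the receptor of Ccl20 on B cells, dendritic cells and some helper T cells, was highest at the middle dose. The ratios were 2.54, 2.00, 2.59, 2.30 and 2.45 in D0 and 3.24, 2.60, 2.55, 2.45 and 2.91 in D1. They were 3.43, 2.87, 3.06, 3.11 and 3.07 in D2 and 3.00, 2.79, 2.98, 2.54 and 2.81 in D3. The D2 mice all lay above the vehicle mice, whereas 1 D3 mouse did not. The change was 0.73 at D2 (SE 0.145, limma adjusted P 0.011) and 0.45 at D3 (SE 0.145, adjusted P 0.0592). Its ligand Ccl20 was among the members tested in no tissue.

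Cxcr4 (NM_009911), the receptor of Cxcl12, was called in the trend alone. The ratios were 0.77, 0.90, 0.99, 0.85 and 0.47 in D0 and 1.18, 1.33, 0.77, 1.09 and 0.83 in D1. They were 1.19, 1.24, 1.00, 1.13 and 1.14 in D2 and 1.15, 1.06, 1.47, 1.29 and 1.30 in D3. All D2 and D3 mice lay above the vehicle mice, by small amounts. The slope came to 0.43 over the range from 0 to 80 mg/kg-bw/day (SE 0.106, limma adjusted P 0.0109), and the D3 change of 0.46 (adjusted P 0.0119) was under 1.5-fold.

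**Figure D1:**
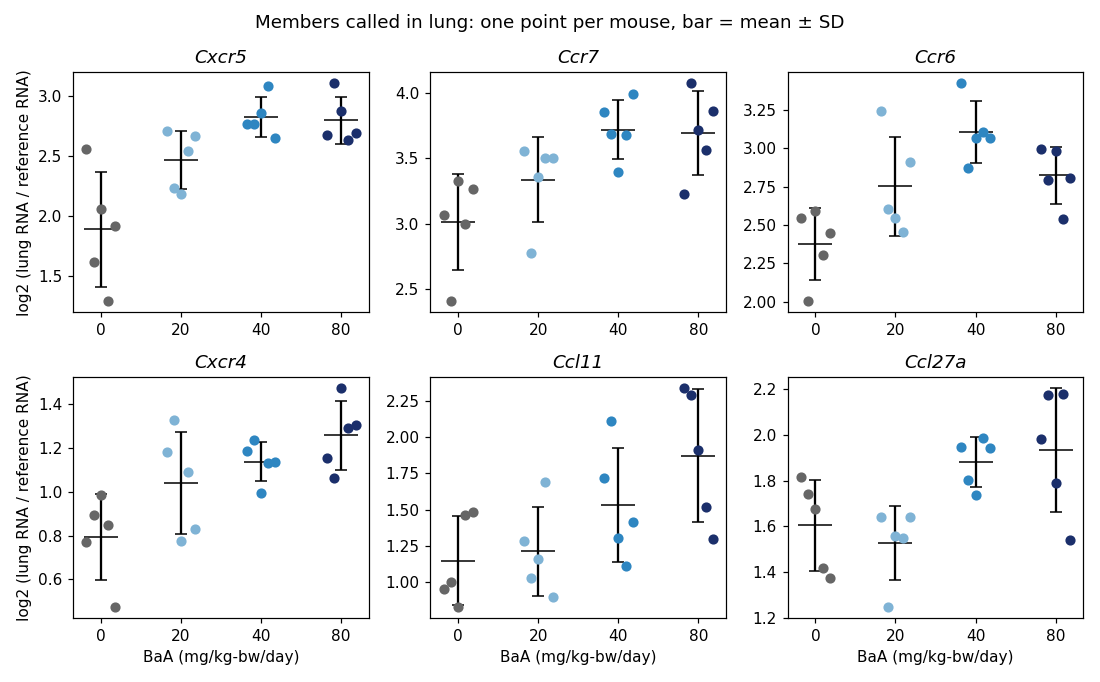
Log2 ratio of lung RNA to reference RNA (vertical axes, each with its own range) against BaA dose for the 6 genes called in lung at a dose or in the trend, with 1 point per mouse, a line at the mean and bars of 1 SD (n = 5). All D2 and D3 mice lie above the vehicle mice for Cxcr5 and Cxcr4, and Ccr6 is highest at 40 mg/kg-bw/day.

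Ccl11 (NM_011330), or eotaxin, draws eosinophils through Ccr3. The ratios were 0.95, 1.00, 0.83, 1.47 and 1.48 in D0 and 1.28, 1.03, 1.16, 1.69 and 0.90 in D1. They were 1.72, 2.11, 1.31, 1.11 and 1.41 in D2 and 2.34, 2.29, 1.91, 1.52 and 1.30 in D3, and 1 D3 mouse, mouse 20, lay within the vehicle range. The change was 0.73 at D3 (SE 0.216, limma adjusted P 0.04) and the slope 0.77 over the dose range (SE 0.199, adjusted P 0.0149). The D3 call was lost without any one of mice 1, 2, 3, 16, 17 and 18 (adjusted P 0.0731 to 0.114) and that of the slope without mouse 17 (0.66, adjusted P 0.0529), and the change within the 3 slides was 1.33, 0.69 and 0.13. With other ways of processing included, 11 of 30 alternatives lost the D3 call, with a limma adjusted P of up to 0.848. Ccr3 itself changed by 0.04 (SE 0.077, limma adjusted P 0.817).

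Ccl27a draws Ccr10-bearing lymphocytes to skin and mucosa, and its 3 probes did not move alike. The probe A_55_P2068734, the brightest in lung, read 1.82, 1.74, 1.68, 1.42 and 1.37 in D0 and 1.98, 2.17, 1.79, 2.18 and 1.54 in D3. Its D3 values of 1.79 and 1.54 lay inside the vehicle range. The probe A_55_P2068723 read 1.62, 1.69, 1.46, 1.26 and 1.46 in D0 and 2.08, 1.91, 1.62, 1.95 and 1.84 in D3, with one D3 mouse inside the vehicle range. Slopes over the dose range were 0.40 for both (limma adjusted P 0.0378 and 0.005), while the third probe, A_55_P2070576, had a slope of 0.06 (SE 0.092, limma adjusted P 0.754). Ccl27a has a near-identical copy, Ccl27b, that no probe is named for here, and its gene overlaps Il11ra1, so which transcript these probes read is uncertain. The trend of the first probe was lost without any one of mice 4, 5, 9, 16, 17 and 19 (adjusted P 0.0509 to 0.108).

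The promoter table of RefSeq (GRCm38.p6) held 37 of the 51 members, and 3 of the genes called in lung were among them. The 250 bases before the start are shown for these 3, 5′ to 3′ on the gene's strand, because they are the genes called in lung, at a dose or in the trend, that the table holds. Capitals mark GCGTG, the core of the sites bound by the aryl hydrocarbon receptor, the receptor that polycyclic aromatic hydrocarbons are known to activate. Letters were searched on both strands and for Ccl27a, with several starts, the stretch shown is 1 of 3. Of the other Ccl27a windows, chr4:41774102-41774351 overlaps the stretch shown and holds the same GCGTG at the same position. The window chr4:41770213-41770462 does not hold these letters.
Cxcr4, chr1:128592300-128592549, minus strand: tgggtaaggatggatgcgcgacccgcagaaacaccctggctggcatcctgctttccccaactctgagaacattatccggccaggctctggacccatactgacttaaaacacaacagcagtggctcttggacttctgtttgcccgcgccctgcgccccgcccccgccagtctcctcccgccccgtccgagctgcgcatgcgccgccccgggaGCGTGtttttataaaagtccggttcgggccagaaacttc
Ccr6, chr17:8235793-8236042, plus strand, the first of its starts: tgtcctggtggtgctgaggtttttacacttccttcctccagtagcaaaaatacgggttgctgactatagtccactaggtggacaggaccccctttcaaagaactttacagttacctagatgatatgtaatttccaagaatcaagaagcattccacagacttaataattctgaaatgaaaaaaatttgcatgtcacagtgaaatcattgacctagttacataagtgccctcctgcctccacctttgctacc
Ccl27a, chr4:41774177-41774426, minus strand: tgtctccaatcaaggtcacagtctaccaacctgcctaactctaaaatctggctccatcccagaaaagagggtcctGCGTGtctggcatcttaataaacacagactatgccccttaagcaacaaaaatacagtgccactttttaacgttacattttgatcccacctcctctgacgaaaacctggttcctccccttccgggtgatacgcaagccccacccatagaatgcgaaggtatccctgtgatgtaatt
The letters GCGTG began 39 bases before the Cxcr4 start and 175 bases before the Ccl27a start and were in neither Ccr6 window. They were in 15 of 41 member windows (36.6%) and in 28.2% of all 32851 windows of the same length. The Ccl27a site is counted in each of its overlapping windows.

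The ligands of the called receptors were not called. Cxcl13, the ligand of Cxcr5, read 2.67, 1.89, 2.02, 1.79 and 3.11 in D0 and 2.10, 1.42, 1.31, 1.5 and 1.07 in D3. The D2 mice read 1.39, 2.25, 1.96, 3.98 and 1.20, with the high value in mouse 14, the lung array with the high adipocyte score. The D3 change was -0.81 (SE 0.412, limma adjusted P 0.237), a value below vehicle while its receptor was above. Ccl21a changed by -0.01 (SE 0.084, limma adjusted P 0.947), and Ccl19 changed by 0.19 (SE 0.341, limma adjusted P 0.792) on its brightest probe. Ccl21a and Ccl21b are near-identical copies, so their probes may read both. Cxcl12 changed by 0.15 (SE 0.174, limma adjusted P 0.667) on one probe and 0.20 (SE 0.237, limma adjusted P 0.673) on the other, and Ccr10 by -0.04 (SE 0.1, limma adjusted P 0.849).

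B cell genes moved with the receptors in lung. Of 11 B cell genes tested, 5 were called higher at D2, among them Cd79b (1.10), Ms4a1 (0.86), Fcer2a (0.78) and Cd79a (0.64, limma adjusted P 0.00125 to 0.0365 for these). At D3, 3 were called higher, among them Cd79b (0.80) and Fcer2a (0.62). Of all probes, 0.484% and 1.32% were called higher at these doses. The list's score ranged from -0.50 to -0.06 in D0, from -0.25 to 0.27 in D1, from 0.12 to 0.65 in D2 and from -0.02 to 0.25 in D3. Every D2 and D3 mouse was therefore above every vehicle mouse in the list, as for Cxcr5. Of the 11 genes, 9 were well above background on all 20 lung arrays, and each of the others on some. In the T cell list 0 of 10 genes were called, and its score ranged from -0.39 to -0.04 in D0 and from -0.12 to 1.43 in D3, the highest in mouse 17. The part of B or T cells in the receptor values was not tested.

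Downstream of the receptors, 24 signalling genes were tested in lung. Grk3, a kinase that turns off activated receptors, rose at D3 by 0.73 (SE 0.121, limma adjusted P 0.00111), 1 of 2 called at that dose (1.88% of all probes), both higher. In the trend Grk3 rose by 0.76 (adjusted P 0.000405) and the G protein subunit Gnai3 fell by 0.40 (adjusted P 0.00585), the 2 of 24 called there, against 11.6% of all probes. Of 10 tested genes for other ligands and receptors, such as the atypical receptors, 0 were called at any dose or in the trend.

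At the lowest dose the inflammatory ligands stood higher in lung, without any call. All 11 tested inflammatory CC ligands had a positive D1 change, with a median of 0.60, against 0.00 for all probes, and at D2 and D3 the medians were -0.14 and -0.16. Single values included Ccl9 (1.28, SE 0.385, limma adjusted P 0.39), Ccl2 (1.10, SE 0.41, adjusted P 0.525), Cxcl10 (1.08, SE 0.386, adjusted P 0.494) and Cxcl5 (1.34, SE 0.514, adjusted P 0.562). Without mice 7, 8 and 9 the changes of Ccl9, Cxcl10 and Cxcl5 were 0.13, 0.22 and 0.22. These mice were most of the D1 group and were chosen after the D1 values were seen. Lower changes without them are therefore built in and test nothing.

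Ccl2, the main monocyte attractant, read -3.59, -3.90, -3.63, -3.76 and -3.77 in D0 and -3.92, -1.35, -2.96, -0.96 and -3.95 in D1 mice 6 to 10. Mice 7, 8 and 9 were high, and mice 6 and 10 were below all vehicle mice. Cxcl10 read -1.92, 1.25, -1.14, 0.25 and -0.74 in the same D1 mice, against -1.43, -2.12, -1.63, -1.08 and -1.47 in D0. Cxcl5, a neutrophil attractant made by lung epithelium, read -2.35, 0.33, -1.27, -0.79 and -2.53 in D1 and between -3.99 and -1.96 in D0. Cxcr2, the neutrophil receptor of Cxcl5, followed another mouse, with 2.13, 2.53, 4.91, 2.49 and 2.27 in D1, where the high value was in mouse 8. In mouse 8 the neutrophil list score was 2.19, against -0.88 to 0.72 in vehicle mice, and the macrophage list score was 1.23 in mouse 7 and 0.64 in mouse 9, against -0.43 to 0.28. The part of these cells in the ligand values was not tested. Without mice 7, 8 and 9, 3 of the 11 ligands were higher at D1, with a median of -0.10.

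**Figure D2:**
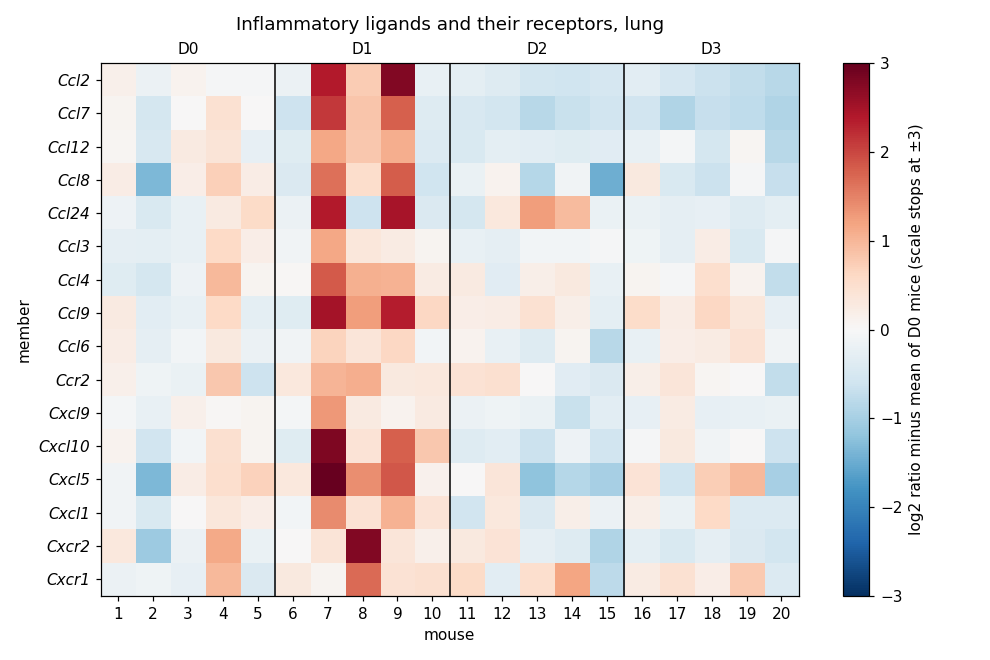
Log2 ratio minus the mean of the 5 vehicle mice for inflammatory ligands and their receptors (rows) in each of the 20 lung arrays (columns, by mouse number within dose group), with a colour scale that stops at ±3. Mice 7 and 9 of D1 are high in Ccl2, Ccl7, Ccl24 and Ccl9, mouse 8 is high in Cxcr2 and Cxcr1, and Ccl2 and Ccl7 lie below the vehicle mean in all D2 and D3 mice.

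The monocyte ligands Ccl2 and Ccl7 read below vehicle mice at the higher doses, without a call when all mice were in the fit. Ccl2 read -4.03, -4.12, -4.29, -4.32 and -4.23 in D2 and -4.06, -4.24, -4.38, -4.46 and -4.56 in D3, all below every vehicle mouse. Ccl7, which shares the receptor Ccr2, read -3.38, -3.99, -3.45, -3.0 and -3.45 in D0, -3.93, -4.00, -4.29, -4.11 and -4.04 in D2 and -4.02, -4.35, -4.14, -4.22 and -4.36 in D3. The D3 mice were again below all vehicle mice. With all mice in the fit the D3 changes were -0.61 for Ccl2 (SE 0.41, limma adjusted P 0.397) and -0.77 for Ccl7 (SE 0.373, adjusted P 0.219) and were not called. With only D0 and D3 in the fit, or without D1 mice 7, 8 and 9, both were called (adjusted P 0.0112 and 0.0185 in the former, 0.00134 and 0.00308 in the latter). The second of these settings was chosen after the D1 values were seen. With median centring the D2 change of Ccl2 was 0.16 in place of -0.47, so its direction at D2 depends on the scaling.

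Beyond these, the tested lung members showed no call. Receptors Ccr2, Ccr3, Ccr8, Ccr9, Ccr10, Cxcr1, Cxcr2, Cxcr3 and Cxcr6 had D3 changes between -0.40 and 0.25. The lowest were the neutrophil receptor Cxcr2 (-0.40, limma adjusted P 0.632) and Cxcr3 of activated T cells (-0.37, adjusted P 0.17). Ccl17, a Ccr4 ligand made by dendritic cells, changed by -0.45 at D3 (SE 0.193, limma adjusted P 0.153), with a slope of -0.47 (SE 0.176, limma adjusted P 0.0911) over the dose range. Cxcl15, or lungkine, a CXC ligand of lung epithelium, was nearly constant, with D1 to D3 changes of -0.02, -0.03 and -0.07.

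One lung array carried 2 members far from all others. Ccl25, which the thymus and small intestine are known to make, read 1.98 in D3 mouse 17 and between -1.28 and -0.85 in the other 19 lungs. Its receptor Ccr9, carried by thymocytes and gut-homing T cells, read 1.44 in mouse 17 and between -1.12 and -0.45 in the others. Ccl19 was also highest of D3 there, at 2.86 against 1.58 to 1.76. The T cell score of this array was 1.43, and its part in these values was not tested. The second Ccl25 probe, A_55_P2027852, was well above background on 0 of 20 lungs and was not tested. Its reading of -0.33 in mouse 17 is therefore too dim to set against the first probe. Without mouse 17 the D3 change went from 0.53 to -0.08 for Ccl25 and from 0.20 to -0.29 for Ccr9.

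**Figure D3:**
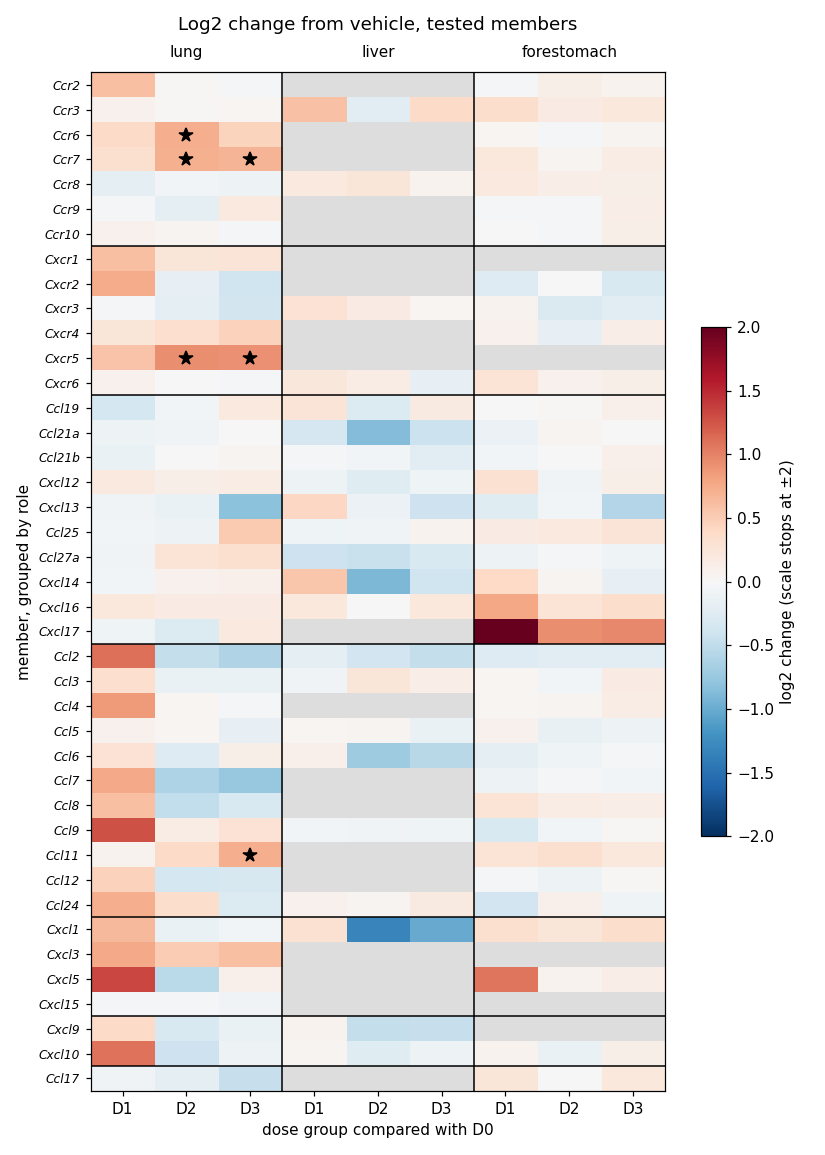
Log2 change from vehicle at D1, D2 and D3 (columns) in lung, liver and forestomach for members tested in at least 1 tissue (rows, by role, 1 member not reported here left out, with the brightest tested probe per gene), with grey where a member was not tested and stars where limma called the change. The 6 stars are all in lung, and the colour scale stops at ±2, below the Cxcl17 value of 2.99 at D1 in forestomach.

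In liver, 0 of 30 member probes were called at any dose or in the trend by limma, where 0.241%, 0.588% and 0.434% of all 22786 probes were called at D1, D2 and D3 and 0.676% in the trend. The counts with an unadjusted p under 0.05 were 5, 4 and 1 at the 3 doses and 4 in the trend. Of all probes, 7.52%, 12.8% and 15% were under 0.05 at the 3 doses and 15% in the trend. The nearest to a call was Ccl27a on probe A_55_P2068723, which read 2.63, 2.99, 2.59, 2.77 and 2.38 in D0 mice 1 to 5 and 2.31, 1.89, 2.25 and 2.00 in D3 mice 16 to 19. The D3 mice all lay below the vehicle mice, and the change of -0.56 (SE 0.125, limma adjusted P 0.0328) was just under 1.5-fold. It passed without mouse 5 (-0.64) and without mouse 16 (-0.63).

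Ccl27a was also the member whose D3 effect differed between tissues. The change in lung minus that in liver was 0.94 on this probe (SE 0.171, limma adjusted P 0.000266), with 2.07% of all 21865 probes called in this comparison. On the brightest lung probe, A_55_P2068734, the difference was 0.64 (SE 0.224, limma adjusted P 0.129), and on A_55_P2070576 it was 0.13 (SE 0.191, limma adjusted P 0.863), so the 3 probes of the gene do not give the same answer. With median centring the difference on A_55_P2068723 was 1.13 and lost its call (adjusted P 0.991). The other 28 probes gave no call between lung and liver. Between lung and forestomach 0 of 43 were called (0.257% of all probes), with 4 at an unadjusted p under 0.05 (8.39% of all probes). Between liver and forestomach 0 of 28 were called (0.0453%), with 1 at an unadjusted p under 0.05 (6.93%).

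A pair of liver arrays stood apart in homeostatic ligands. Cxcl13 read 2.92 in D1 mouse 8 and 2.61 in D2 mouse 11, and between -0.15 and 1.24 in the other 17 mice. Cxcl14, an epithelial ligand, read 4.46 in mouse 8 and between 0.42 and 2.46 in the others. Cxcl1, a neutrophil attractant that hepatocytes make in the acute phase, read 2.90 in mouse 8 and between -2.71 and 0.36 in the others. The neutrophil score of this liver was 1.97, the highest of the 19, as it was in the lung of the same mouse, and its part was not tested. Cxcl1 changed by -1.32 (SE 0.66, limma adjusted P 0.417) at D2 and -1.01 (SE 0.7, limma adjusted P 0.543) at D3, below vehicle and not called.

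In forestomach, 0 of 43 member probes were called by limma at any dose or in the trend, where 0% of all 32313 probes were called at D1, 0.0124% at D2, 0.0248% at D3 and 0.0248% in the trend. The counts with an unadjusted p under 0.05 were 5, 1 and 1 at D1, D2 and D3 and 2 in the trend. Of all probes, 4.42%, 3.29% and 5.11% were under 0.05 at D1, D2 and D3 and 5.25% in the trend. The largest change was in Cxcl17, a mucosal ligand, at 2.99 at D1 with an adjusted P of 0.968. It read -0.17, 4.23, -0.19 and 0.34 in D0 mice 1 to 4 and 3.97, 4.91, 3.50, 4.85 and 2.97 in D1 mice 6 to 10. In D2 mice 11 to 15 it read 0.17, 0.05, 0.04, 5.24 and 4.38, and in D3 mice 16 to 20 0.47, 0.49, 0.05, 4.37 and 4.67. The values lay either between -0.19 and 0.49 or between 2.97 and 5.24, and all 5 D1 mice but 1 of 4 vehicle mice were in the upper set.

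The upper set was the set of mice with a high glandular stomach score. The score was at least 1.25 in the 10 mice with Cxcl17 of 2.97 or more and at most -0.64 in the other 9. All 8 genes of that list, from gastrokines to proton pump subunits, were above background on 11 or more of the 19 forestomach arrays, which are labelled as forestomach, a squamous tissue. Cxcl5 followed the same split, with -4.55, -2.57, -4.81 and -4.76 in D0 and -3.31, -2.96, -2.90, -2.97 and -3.38 in D1. Cxcl16 followed it less closely, with 0.33, 0.62, 0.71 and 0.31 in D0, where mouse 2 was not the highest, and 0.33, 0.46, 0.37, 1.67 and 1.00 in D2. With the glandular score as a covariate, chosen after these values were seen, the D1 change of Cxcl17 went from 2.99 to -0.36 (limma adjusted P 0.692). Every D1 mouse had a high score, and of the vehicle mice only mouse 2 did. Dose and score can therefore hardly be told apart at D1.

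**Figure D4:**
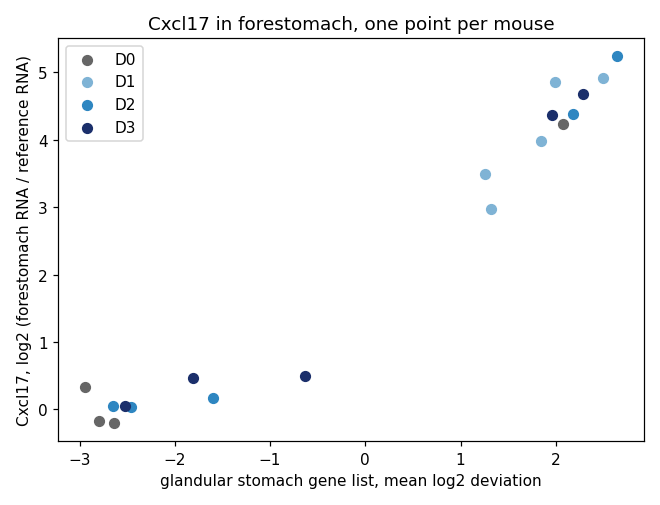
Cxcl17 log2 ratio of forestomach RNA to reference RNA (vertical) against the glandular stomach list score, the mean log2 deviation of its genes (horizontal), with 1 point per mouse coloured by dose group. The 10 points at the upper right hold all 5 D1 mice, 1 D0 mouse, 2 D2 mice and 2 D3 mice.

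Cxcl13 in forestomach also varied mouse by mouse, with 0.18, 0.21, 1.40 and 1.97 in D0, 0.15, 0.30, 0.33, 2.40 and 0.27 in D1 and 2.61, 0.69, 0.69, 0.08 and 0.34 in D2. The 4 highest were mice 3, 4, 9 and 11, whose adipocyte scores were 2.31, 2.81, 2.26 and 1.77. Mice 1 and 12, with scores of 2.06 and 2.27, read 0.18 and 0.69, so a high score did not go with a high Cxcl13 in every mouse. In lung the highest Cxcl13, 3.98 in mouse 14, was on the array with the highest adipocyte score. The B cell score was 0.53 in mouse 4 and 0.44 in mouse 9, the highest of the forestomachs. The part of either cell type was not tested.

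The members' levels differed between the tissues of vehicle mice. Of probes tested in both tissues, 25 of 43 were called between lung and forestomach (23 higher in lung, 2 lower), against 31.8% of all probes. Between lung and liver 21 of 29 were called (11 higher in lung, 10 lower), against 50.6%, and between liver and forestomach 16 of 28 (13 higher in liver, 3 lower), against 44.9%. With each array centred on its median in place of loess these splits were 14 and 4, 12 and 4, and 4 and 6. The shares of all probes called in each direction are not given here, so the splits cannot be read as a result about the members. In the same order, 31 of 43, 24 of 29 and 20 of 28 had an unadjusted limma p under 0.05. Of all probes, 59.8%, 77.1% and 71.7% did. Each slide held a single tissue, so slide and tissue cannot be told apart in these differences.

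Among the larger differences between lung and the other tissues were those of Ccl6, a ligand of myeloid cells, and Ccl5. Ccl6 read 7.55, 7.05, 7.24, 7.61 and 7.14 in lung and 3.14, 2.55, 3.09, 3.63 and 2.96 in liver of vehicle mice, and the difference was 4.25 (SE 0.335, limma adjusted P 1.96e-16). Ccl5, made by T and NK cells, was higher in lung by 3.41 than in liver and by 3.96 than in forestomach. The lymphatic ligands Ccl21b and Ccl21a were higher than in liver by 3.01 and 2.65, Cxcl16, the ligand of Cxcr6, by 2.28 and the epithelial ligand Cxcl14 by 2.07. The liver difference of Ccl21a was 0.19 with the scanner software's processed signals (adjusted P 0.473). Cxcl16 was higher than in forestomach by 2.96. The differences from forestomach were 3.70 for Ccr7, 2.66 for Ccr6 and 3.61 for Cxcl17, but these were well above background on only 2, 1 and 1 of the 4 vehicle forestomachs, so their sizes rest mostly on dim signals there. The forestomach mean of Cxcl17 was raised by mouse 2 (4.23). Cxcl15 was well above background on all 5 vehicle lungs and on none of the livers or forestomachs, which makes it at least 172-fold and at least 186-fold higher in lung. On the same terms Cxcl17 was at least 26.7-fold, Ccr7 at least 8.14-fold, Ccr2 at least 5.01-fold and Cxcr5 at least 2.66-fold higher in lung than in liver. These bounds set the lung signal against a level on each of the other arrays. That level was the higher of the probe's own signal and the lowest signal flagged well above background. For Ccr7 in liver it was the probe's own on average. The signals are Cy5 values after loess and a quantile scaling of average spot intensity across the arrays of all tissues. Without a dye swap the bounds are open to dye bias.

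In liver, 10 probes were called higher than in lung. Among them Cxcl1 was higher by 2.70, Ccl9 by 1.92, Ccl24, an eosinophil attractant, by 1.52, Cxcl9 by 1.44 and Ccl27a on A_55_P2068723 by 1.18 (limma adjusted P 0.000862 or below). Against forestomach, Cxcl1 was at least 10.2-fold higher and Ccl9 higher by 3.44 (SE 0.321, adjusted P 1.03e-13). Ccl25 was higher in liver than in forestomach by 1.87, and Cxcl10 by 1.69. Cxcl12 differed by probe. The probe A_55_P1966204 was lower in lung than in liver by 2.44 and lower than in forestomach by 1.05. It was higher in liver than in forestomach by 1.39 (limma adjusted P 3.64e-08), a call lost under 1 alternative. The probe A_51_P172502 was higher than in forestomach by 3.50 in lung and by 3.69 in liver. On it, lung minus liver was -0.19 (limma adjusted P 0.462). The probes carry different transcript accessions, NM_021704 and NM_001012477. With median centring Ccl24 and the Ccl27a probe lost their calls between lung and liver (-1.05 and -0.69 for lung minus liver, adjusted P 0.0821 and 0.0808), and Ccl25 lost its call between liver and forestomach (0.88, adjusted P 0.0612).

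Forestomach exceeded lung in Ccl11, by 1.55 (SE 0.186, limma adjusted P 4.45e-10), with 2.69, 2.42, 2.82 and 2.85 in forestomach and 0.95, 1.00, 0.83, 1.47 and 1.48 in lung. It exceeded liver in Ccl6 by 2.5, Ccl21a by 2.13 and Ccl21b by 1.73. With the scanner software's processed signals the Ccl21a difference, as liver minus forestomach, was 0.1 (adjusted P 0.739), which turns its direction. The order of Ccl11 levels was forestomach, lung and liver, where it was not above background on any array of vehicle mice.

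**Figure D5:**
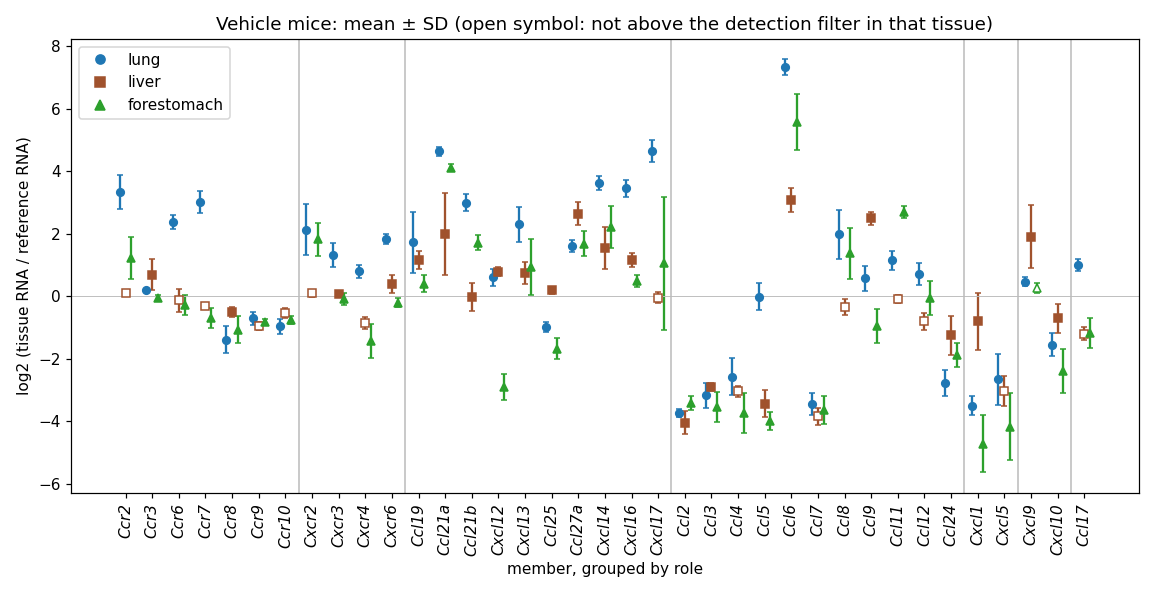
Log2 ratio of tissue RNA to reference RNA in vehicle mice (vertical) for members tested in at least 2 tissues (horizontal, by role, 1 member not reported here left out), as mean with bars of 1 SD (n = 5 lung, 5 liver, 4 forestomach), with open symbols where the probe was below the detection filter of that tissue. Ccl6, Cxcl17 and Ccr7 are highest in lung, Ccl9 and Cxcl1 in liver and Ccl11 in forestomach.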

How the data were processed

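RNA of lung, liver and forestomach from 20 mice was hybridised to 58 two-colour Agilent arrays, with tissue RNA in Cy5 and reference RNA in Cy3 and no dye swap. The authors deposited spot intensity values from Feature Extraction 10.7.3.1 and a table of LOWESS-normalised log2 ratios. Here the median intensities, without background correction, were normalised by loess within each array in R 4.3.3 with limma 3.58.1, leaving out outlier spots (0.495% of gene spots). Loess sets each value relative to spots of similar average intensity on the same array. Precision is limited by the number of arrays. Symbols came from RefSeq GRCm38.p6, which named 26413 of 55681 probes.

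Groups followed the sample labels. Doses were compared with D0 by limma within a tissue, over 4 groups, and tissues in a joint model of 12 groups, with Benjamini-Hochberg adjustment over all probes tested. The study used MAANOVA, which was not run here. The members and lists were chosen with earlier results of these data known. Values were given for members called at a dose or in a trend and for their ligand or receptor, and for the 6 largest vehicle differences in each direction; other members named were chosen after their values were seen. A gene's value was that of its brightest tested probe. A few genes are counted but their values are not reported here.

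Alternatives were the authors' log2 table, normexp (offset 50), median centring, processed signals, slide as a block, other filters on dim probes, only the groups compared, other fold minimums, mouse as a block and leaving out each mouse. A slide block between tissues, leaving out lung D1 mice 7, 8 and 9 and a glandular stomach covariate were chosen after seeing the data. By the titles, tissues of the same number came from the same mouse, and the median correlation of their deviations was 0.125 (lung and liver, 19 mice), 0.093 (lung and forestomach, 19) and 0.056 (liver and forestomach, 18). The fit was tested on simulated data.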

Additional observations from a re-analysis of the deposited data

Results flagged for a closer look

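Values of 35 of 396 groups of a member in a tissue and dose (8.84%) held a mouse whose gap to the nearest other mouse was a large part of the group's range, and chance flags about 1 in 20 groups. The values are log2 ratios of tissue RNA to reference RNA.

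Lung mouse 13 (D2) stood apart in Ccl17 (0.51). Lung mouse 5 (D0) stood apart in Ccl19 (3.42). Lung mouse 7 (D1) stood apart in Ccl19 (0.91), Ccl25 (-1.26), Ccl27a (1.25), Ccr7 (2.77) and Cxcl9 (1.77). Lung mouse 17 (D3) stood apart in Ccl19 (2.86), Ccl25 (1.98), Ccr9 (1.44) and Cxcl9 (0.71). Lung mouse 2 (D0) stood apart in Ccl8 (0.65). Lung mouse 16 (D3) stood apart in Cxcl17 (5.05). Lung mouse 4 (D0) stood apart in Cxcr1 (2.4). Lung mouse 8 (D1) stood apart in Cxcr1 (3.13) and Cxcr2 (4.91).

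Liver mouse 11 (D2) stood apart in Ccl24 (-1.91) and Cxcl13 (2.61). Liver mouse 16 (D3) stood apart in Ccl6 (2.75). Liver mouse 8 (D1) stood apart in Cxcl1 (2.9), Cxcl13 (2.92) and Cxcl14 (4.46).

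Forestomach mouse 1 (D0) stood apart in Ccl19 (-0.66). Forestomach mouse 10 (D1) stood apart in Ccl21b (2.69). Forestomach mouse 2 (D0) stood apart in Ccl3 (-2.84), Ccl4 (-2.78), Cxcl1 (-3.34), Cxcl17 (4.23), Cxcl5 (-2.57) and Cxcr4 (-0.62). Forestomach mouse 15 (D2) stood apart in Ccl3 (-2.72), Ccl4 (-3.05) and Cxcl1 (-3.39). Forestomach mouse 9 (D1) stood apart in Cxcl13 (2.4). Forestomach mouse 11 (D2) stood apart in Cxcl13 (2.61).

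The D3 change of Ccl27a on probe A_55_P2068723 differed between lung and liver by 0.944 (SE 0.171, limma adjusted P 0.000266), with a rise of 0.38 in lung and a change of -0.56 in liver. With mouse as a block the difference was 0.946, and with slide as a block 0.926. With median centring it was 1.127 (SE 0.456, adjusted P 0.991) and was not called.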

How the results depend on the processing

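Of the counts of member probes called, 509 values under an alternative stayed within 1.5 times the main count and 21 did not. The shares of all probes called under these alternatives are not given here, so the counts cannot be read as results about the members. With median centring the counts were 0 in lung at D2, at D3 and in the trend, 0 for the D3 difference of lung and liver and 10 between vehicle liver and forestomach. With processed signals they were 0 in lung at D3, 3 in the trend and 2 for the D3 difference of lung and liver. Without a filter on dim probes they were 1 for the D3 difference of lung and forestomach, 2 for that of lung and liver and 35 between vehicle lung and liver. With no minimum fold they were 1 in liver at D3 and 5 in lung at D3, and with a minimum of 1.5-fold 3 in the lung trend. Without lung D1 mice 7, 8 and 9 the lung D3 count was 5. Median centring moved the median of all probes by 0.386 in lung at D2. Leaving out each mouse in turn gave 2 to 3 calls in lung at D2, 1 to 3 at D3 (1 without mouse 2 or 17), 3 to 7 in the trend, 0 to 1 in liver at D3 and 0 to 1 in the liver trend. With mouse as a replicate block, the vehicle counts were 24, 21 and 16 and the D3 difference of lung and liver kept 1 call, so the pairing changed no other count by over 1.5 times.

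Of the changes of named members, 2356 kept direction and call, 71 lost the call, 13 gained it and 24 reversed. The reversals at D3 in lung were Ccl19 (-0.03 without mouse 4, -0.048 without mouse 17 and, on its other probe, 0.057 without mouse 5), Ccl21a (0.267 with median centring, 0.01, 0.035 and 0.02 without mice 2, 4 and 17), Ccl25 (-0.08) and Ccr9 (-0.286) without mouse 17, Ccr10 (0.029 with median centring, 0.197 with processed signals, 0.04 without mouse 5) and Ccl27a on A_55_P2070576 (-0.102 with processed signals, -0.026, -0.025 and -0.025 without mice 4, 5 and 17). For that probe the trend was -0.073 and the D3 difference of lung and liver -0.034 with processed signals. Without lung D1 mice 7, 8 and 9 the D1 changes of Ccl2, Ccl7 and Ccl24 were -0.201, -0.498 and -0.312. Ccl2 at D2 was 0.157 with median centring, Ccl21a between vehicle liver and forestomach 0.1 with processed signals, and Cxcl17 at D1 in forestomach -0.355 with the glandular covariate. Leaving out each mouse in turn, the D3 values in lung ran from -0.048 to 0.613 for Ccl19, from -0.065 to 0.035 for Ccl21a, from -0.08 to 0.704 for Ccl25, from -0.286 to 0.355 for Ccr9, from -0.106 to 0.04 for Ccr10 and from -0.026 to 0.078 for that Ccl27a probe. The cause was not tested.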
